A study of Mus musculus with 2 samples.

Results

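Amino acid transporter genes were taken as the protein-coding genes of 7 solute carrier families, Slc1, Slc3, Slc6, Slc7, Slc36, Slc38 and Slc43, by their gene symbols. The rule gave 60 genes of the 55536 gene records in the deposited tables, and of 22015 nuclear protein-coding genes. The rule uses symbols and no measured value, and it leaves out a further symbol that matches the pattern. Of the 60 genes, 59 had a place in a list of transporter roles, and Slc6a21 had none.

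The tissue was the adrenal gland, taken at 36 days of age from females of the strain B6CASTF1/J, the first-generation cross of C57BL/6J and CAST/EiJ, and the assay was total RNA-seq. The study holds 1 group of 2 libraries, replicate 2 and replicate 1, each prepared with 300 ng of RNA depleted of ribosomal RNA, with no allele, treatment or control to compare. Per the labels the libraries are biological replicates, but the descriptions of the animals are not uniform on whether both came from the same animal, so differences between the libraries may be technical. With 2 libraries of 1 group no test was made, and ratios are given as replicate 2 over replicate 1.

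Membrane carriers move amino acids into cells, out of them and across the lysosomal membrane. Some are driven by sodium or protons, and others exchange an amino acid inside the cell for another outside it. The Slc3 heavy chains bring Slc7 light chains to the plasma membrane, where the light chain does the transport. In the adrenal gland these carriers serve an outer cortex that makes steroids and an inner medulla whose chromaffin cells make catecholamines from tyrosine.

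The deposited gene tables held 38701795 expected counts in replicate 2 and 35684781 in replicate 1. All 9 cortex markers and all 9 chromaffin markers were detected, here meaning a TPM, a level corrected for transcript length and library total, of at least 1 in both libraries. The cortex markers summed to 17465 TPM in replicate 2 and 17093 in replicate 1, and the chromaffin markers to 1302 and 1701 TPM. Of 10 skeletal muscle markers, which the gland itself should lack, the summed level was 2.91 TPM in replicate 2 and 353 in replicate 1. Adipocyte markers summed to 2210 TPM in replicate 2 and 2125 in replicate 1, and brown fat markers to 883 and 931 TPM, so both libraries held RNA of genes known from adipocytes.

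Of the 60 transporter genes, 31 were detected, a share of 51.7%, beside 53.0% of all nuclear protein-coding genes. Together the 60 genes summed to 698 TPM in replicate 2 and 641 in replicate 1, which was 0.223% and 0.206% of the TPM of nuclear protein-coding genes. The 3 highest were the taurine transporter Slc6a6, the heavy chain Slc3a2 and the sodium-coupled neutral amino acid transporter Slc38a2. These 3 held 53.4% of the summed TPM in replicate 2 and 50.9% in replicate 1. In replicate 2, 13 genes reached 10 TPM, and in replicate 1, 14 genes did.

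**Figure D1:**
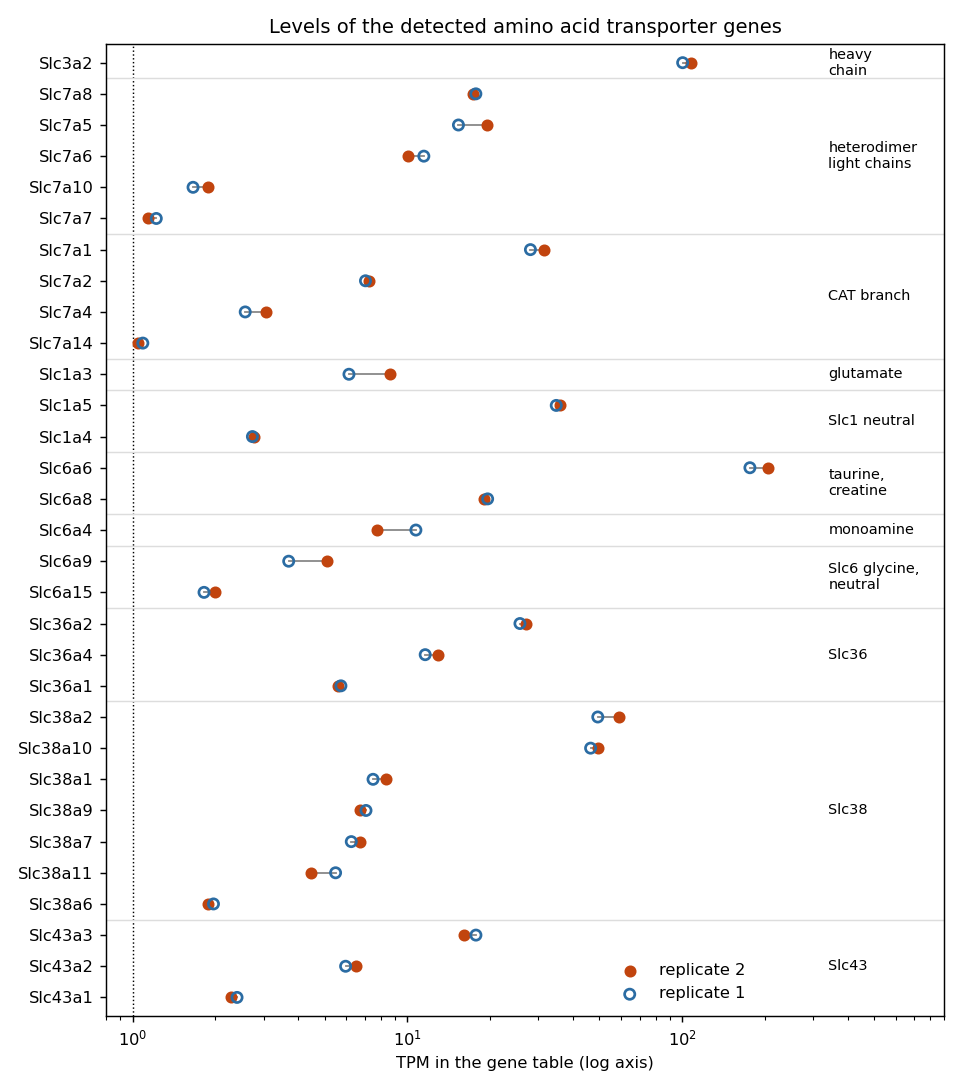
TPM of the 31 detected amino acid transporter genes in the gene table (log axis), grouped by role and ordered by mean level within a role; filled points are replicate 2, open points replicate 1, and the dotted line marks 1 TPM. Slc6a6 and Slc3a2 lie at 100 TPM or above in both libraries, and most pairs of points lie close together.

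Of the 2 heavy chains, the gland expressed Slc3a2 and hardly Slc3a1. Slc3a2 (chr19:8706882-8723369 in mm10, minus strand) stood at 107 TPM in replicate 2 and 100.4 in replicate 1, with 6778 and 5996 expected counts. Slc3a1, the heavy chain of the renal cystine transporter, had 6 counts in replicate 2 and 2 counts in replicate 1, and its usual light chain Slc7a9 had 0 counts in both.

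The light chains that pair with Slc3a2 were present at lower levels than the heavy chain. Slc7a5, an exchanger of large neutral amino acids such as leucine, was at 19.4 TPM in replicate 2 and 15.3 in replicate 1. Slc7a8, a second exchanger of neutral amino acids, was at 17.3 TPM in replicate 2 and 17.8 in replicate 1. Slc7a6, which exchanges cationic for neutral amino acids, was at 10.1 TPM in replicate 2 and 11.5 in replicate 1. The order of Slc7a5 and Slc7a8 thus differed between the libraries, while Slc7a6 was below both in each. The related exchanger Slc7a7 was at 1.14 TPM in replicate 2 and 1.22 in replicate 1, on 65 and 61 counts. Slc7a10, which carries small neutral amino acids and is also known as a surface marker of white adipocytes, was at 1.88 TPM in replicate 2 and 1.66 in replicate 1. The part of adipocyte RNA in the level of Slc7a10 was not tested. Slc7a11, the cystine and glutamate exchanger that feeds glutathione synthesis, was under the threshold at 0.23 TPM in replicate 2 and 0.32 in replicate 1. Summed over the 10 light chains the level was 49.99 TPM in replicate 2 and 47.8 in replicate 1, beside the heavy chain's 107 and 100.4 TPM.

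Of the 5 genes of the cationic amino acid branch of Slc7, 4 were detected. Slc7a1, the widely expressed uptake carrier for arginine and lysine, led with 31.4 TPM in replicate 2 and 28.0 in replicate 1. Slc7a2, a second arginine carrier that is best known from liver and activated macrophages, was at 7.26 TPM in replicate 2 and 7.04 in replicate 1. Slc7a4, a member of the branch with no settled substrate, was at 3.06 TPM in replicate 2 and 2.57 in replicate 1. Slc7a1 therefore exceeded the rest of its branch in both libraries, with Slc7a2 next. Slc7a14, a relative found on lysosomes, was just above the threshold at 1.05 TPM in replicate 2 and 1.09 in replicate 1. Slc7a3 was at 0.12 TPM in replicate 2 and 0.16 in replicate 1, on 11 and 8 counts.

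Slc7a2 is made in forms that differ in a pair of mutually exclusive coding exons, and these forms are known to differ in their affinity for arginine. The exons lie at chr8:40908056-40908195 (the upstream exon, 140 bases) and chr8:40908398-40908534 (the downstream exon, 137 bases), on the plus strand of mm10, with 202 bases between them. They are shown because the forms differ in coding sequence here. Both are from the GENCODE M21 transcripts, 5′ to 3′, with capitals at bases that differ between them in a global alignment, in which 84 of 140 columns were identical (60%).
Slc7a2 upstream exon: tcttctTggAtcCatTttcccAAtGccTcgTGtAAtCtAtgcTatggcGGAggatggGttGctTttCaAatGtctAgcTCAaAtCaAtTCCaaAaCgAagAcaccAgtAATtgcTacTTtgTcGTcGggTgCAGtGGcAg
Slc7a2 downstream exon: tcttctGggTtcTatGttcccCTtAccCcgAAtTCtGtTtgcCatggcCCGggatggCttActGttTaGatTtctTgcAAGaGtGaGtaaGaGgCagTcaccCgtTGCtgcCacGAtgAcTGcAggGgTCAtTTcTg

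Transcripts with the upstream exon, Slc7a2-202 and Slc7a2-203, summed to 5.05 TPM in replicate 2 and 3.82 in replicate 1 in the alignment-derived transcript table. Transcripts with the downstream exon, Slc7a2-201 and Slc7a2-204, summed to 1.84 TPM in replicate 2 and 2.89 in replicate 1. By TPM the upstream form was thus the higher in each library, at 73.3% of the pair in replicate 2 and 56.9% in replicate 1. By alignment-derived counts it was the higher in replicate 2, with 1104 against 550, but the lower in replicate 1, with 654 against 784. The read-derived transcript table, made by the authors straight from the reads, placed 83.7% on the upstream form in replicate 2 and 78.7% in replicate 1. The order of the forms by TPM was the same in all 4 estimates, but the share ranged from 56.9% to 83.7%.

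**Figure D2:**
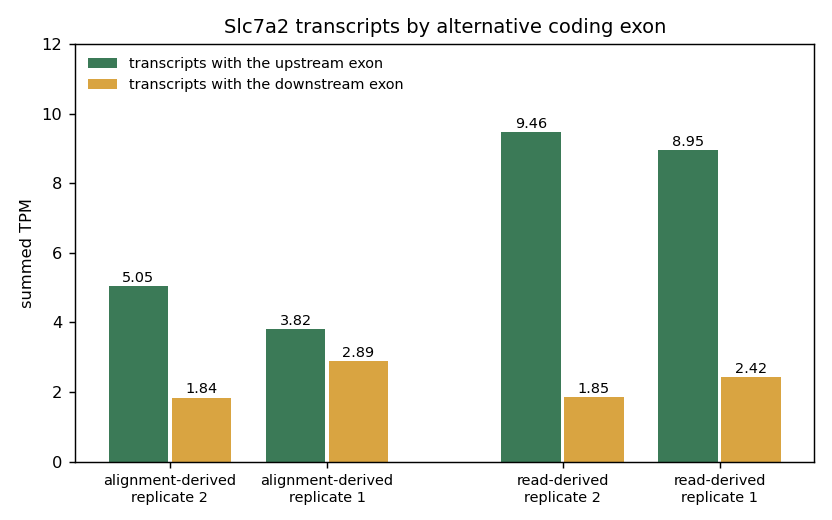
Summed TPM (y axis) of Slc7a2 transcripts with the upstream exon (green) and with the downstream exon (yellow), for replicate 2 and replicate 1 in the alignment-derived table and in the read-derived table. The green bar is the taller in each pair, from 3.82 against 2.89 TPM to 9.46 against 1.85 TPM.

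Among the 5 glutamate transporters of Slc1, only Slc1a3 was detected. Slc1a3, which takes up glutamate into glia of the brain, was at 8.66 TPM in replicate 2 and 6.13 in replicate 1, with 1065 and 864 counts. Its ratio was 0.49 on the log2 scale for TPM, the highest of the transporter genes with at least 200 counts summed over both libraries, but 0.16 for counts scaled by TMM. Its short transcript Slc1a3-204, a retained-intron form, had 1.47 TPM from 21.1 counts in replicate 2 and 0 in replicate 1. The neuronal carrier Slc1a1 was at 0.24 TPM in replicate 2 and 0.37 in replicate 1, on 26 and 33 counts. Slc1a2, Slc1a6 and Slc1a7 had between 1 and 18 counts in each library. The glia markers, given here because Slc1a3 is a glial gene elsewhere, were low, with 2 of 7 detected and a sum of 7.44 TPM in replicate 2 and 6.59 in replicate 1.

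The other Slc1 members exchange neutral amino acids, and both were detected. Slc1a5, a sodium-dependent exchanger that brings glutamine into cells, was at 35.8 TPM in replicate 2 and 34.8 in replicate 1. Slc1a4, which carries alanine, serine and cysteine, was at 2.76 TPM in replicate 2 and 2.73 in replicate 1. Slc1a5 was thus more than 10-fold above Slc1a4 in each library.

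The highest transporter gene was Slc6a6 (chr6:91684053-91759066 in mm10, plus strand), which takes up taurine with sodium and chloride. It stood at 206 TPM in replicate 2 and 176 in replicate 1, a mean of 191 ± 20.9 TPM (SD, n = 2). It ranked 197th among nuclear protein-coding genes in replicate 2 and 255th in replicate 1. Its share of all counts was 1.19 times as high in replicate 2 as in replicate 1 (exact 95% interval 1.17 to 1.21, for counting error only). Slc6a8, the creatine transporter, was at 19.0 TPM in replicate 2 and 19.6 in replicate 1. Slc6a11, Slc6a12 and Slc6a13, which carry GABA or betaine, stayed under 0.5 TPM in each library. The enzymes that make creatine and taurine were all detected, 5 of 5, and Cdo1, the cysteine dioxygenase on the way to taurine, was the highest at 122 TPM in replicate 2 and 124 in replicate 1.

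Of the monoamine carriers Slc6a4 was detected and Slc6a3 was not. Slc6a4, the serotonin transporter, was at 7.77 TPM in replicate 2 and 10.7 in replicate 1, with 722 and 958 counts. Its log2 ratio of -0.46 was the lowest of the transporter genes with at least 200 summed counts, and it was -0.55 with TMM-scaled counts and -0.51 in the read-derived table. Of the 9 chromaffin markers, 8 were also lower in replicate 2, with a median log2 ratio of -0.35. All 5 red blood cell markers were lower too, with a median of -0.39. Brown fat markers had a median of -0.31, with 5 lower and 2 higher. Which cells of the gland hold Slc6a4 RNA was not tested. The share of a cell type and the level of Slc6a4 within it cannot be told apart. Fewer cells of a type and less RNA per cell look alike in bulk tissue. Slc6a3, the dopamine transporter, had 1 count in each library.

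Of the 9 Slc6 genes for glycine, proline and neutral amino acids, 2 were detected. Slc6a9, the glycine transporter of glia and blood cells, was at 5.12 TPM in replicate 2 and 3.70 in replicate 1, a log2 ratio of 0.46. In the read-derived table it was 9.65 TPM in replicate 2 and 9.75 in replicate 1, a log2 ratio of -0.02, although its read-derived counts of 672 and 453 differed as in the gene table. Slc6a9 shares 1429 exon bases, 27.8% of its own, with Ccdc24 on the opposite strand. Ccdc24 was at 0.15 TPM in replicate 2 and 0.05 in replicate 1, on 12.35 and 6.8 counts. Whether the counting used strand is not given in the sources used here. Slc6a15, which carries branched-chain amino acids and proline, was at 2.00 TPM in replicate 2 and 1.82 in replicate 1. Slc6a5, the neuronal glycine transporter, had 64 counts in replicate 2 and 38 in replicate 1.

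Slc6a17, a vesicular carrier of neutral amino acids in neurons, was just under the threshold at 0.77 TPM in replicate 2 and 0.65 in replicate 1. Its counts of 155 and 141 were assigned to different transcripts in the 2 libraries. In replicate 2 Slc6a17-208 took 143 counts and Slc6a17-201 took 0, while in replicate 1 Slc6a17-208 took 0 and Slc6a17-201 took 136. The read-derived table gave the same pattern, with 175 and 0.0002 counts in replicate 2 and 7.60 and 150 counts in replicate 1. The coding exons of these transcripts differ only by 9 bases at the start of the exon at chr3:107474272-107474464 (minus strand, mm10). The junction is shown because so short a stretch separates the coding sequences, with the 9 bases in capitals and 21 bases of coding sequence on each side.
Slc6a17-208 junction: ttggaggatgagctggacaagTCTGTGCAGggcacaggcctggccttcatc
Slc6a17-201 junction: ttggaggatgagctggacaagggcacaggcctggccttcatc

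Of the 4 proton-coupled Slc36 genes, 3 were detected. Slc36a2, a carrier of small amino acids such as glycine and proline that is also known as a surface marker of brown adipocytes, was at 27.1 TPM in replicate 2 and 25.7 in replicate 1. Brown fat markers stood beside it, with 7 of 8 detected, Ucp1 at 257 TPM in replicate 2 and 320 in replicate 1, and Zic1 at 0 in both. The part of brown fat in the level of Slc36a2 was not tested. Slc36a4 was at 12.9 TPM in replicate 2 and 11.6 in replicate 1. Slc36a1, which exports small amino acids from lysosomes, was at 5.58 TPM in replicate 2 and 5.73 in replicate 1. Slc36a3, known from testis, had 0 counts in both libraries, although it lies 6761 bases from Slc36a2 on chromosome 11.

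The Slc38 family supplied 7 detected genes of 11. Slc38a2, a glutamine and alanine carrier known to be raised when amino acids are scarce, led with 59.1 TPM in replicate 2 and 49.3 in replicate 1. Slc38a10, a family member less studied, was at 49.4 TPM in replicate 2 and 46.4 in replicate 1. The related glutamine carrier Slc38a1 was at 8.37 TPM in replicate 2 and 7.50 in replicate 1. Slc38a2 was thus the highest of the family in each library, with Slc38a10 next. The lysosomal members were lower. Slc38a9, the lysosomal arginine sensor of the mTORC1 pathway, was at 6.70 TPM in replicate 2 and 7.07 in replicate 1. Slc38a7, which exports glutamine from lysosomes, was at 6.71 TPM in replicate 2 and 6.25 in replicate 1. Slc38a11 was at 4.46 TPM in replicate 2 and 5.48 in replicate 1. By gene TPM the lysosomal pair thus stood at like levels, and Slc38a11 was below both in each library. This order is not one of coding transcripts. Transcripts not annotated as protein-coding held 63.1% of the TPM of Slc38a9 in replicate 2 and 68.6% in replicate 1. They held 9.82% and 11.0% for Slc38a7, and 17.5% and 23.2% for Slc38a11.

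Slc38a4, known from liver, straddled the threshold with 1.04 TPM in replicate 2 and 0.91 in replicate 1. Slc38a3, a glutamine carrier, had 4 counts in replicate 2 and 73 in replicate 1, or 0.09 and 0.92 TPM. Skeletal muscle markers moved with it, as all 10 were lower in replicate 2, and the 9 with at least 200 summed counts were all lower by more than 1.5-fold. The liver markers summed to 87.4 TPM in replicate 2 and 125 in replicate 1, with all 8 lower in replicate 2. Most of both sums was Cyp2e1, which hardly differed, at 84.8 TPM in replicate 2 and 85.9 in replicate 1. The next highest, Alb, was at 1.34 TPM in replicate 2 and 22.7 in replicate 1. The part of muscle or liver RNA in the counts of Slc38a3 was not tested.

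All 3 Slc43 genes were detected. Slc43a3, a carrier of purine bases rather than amino acids, was the highest at 16.1 TPM in replicate 2 and 17.8 in replicate 1. The facilitated carriers of branched-chain and large neutral amino acids were lower. Slc43a2 was at 6.51 TPM in replicate 2 and 5.96 in replicate 1, and Slc43a1 at 2.28 TPM in replicate 2 and 2.40 in replicate 1.

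In all, 29 genes were not detected, of which 22 had counts in at least 1 library and 7 had 0 counts in both. Among those at 0 were Slc6a18, Slc7a9, Slc7a12 and Slc7a13, known from kidney, Slc36a3, known from testis, and Slc7a15. A count of 0 allows up to 3 counts in a library of this depth. Kidney markers were near 0 too, with 0 of 8 detected and a sum of 0.40 TPM in replicate 2 and 0.43 in replicate 1. Slc6a19, the main neutral amino acid carrier of kidney and gut, had 12 counts in replicate 2 and 8 in replicate 1.

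The levels of the transporter genes were compared between the libraries. Of the 31 genes with at least 200 summed counts, 0 were 1.5-fold or more apart, beside 3.11% of 11599 nuclear protein-coding genes and 3.58% of all genes. A count of 0 of 31 is near that background share. By direction the background was 1.68% higher in replicate 2 and 1.43% lower. The median log2 ratio of the 31 transporter genes was 0.09, and 20 of them were higher and 11 lower in replicate 2, beside a median of 0.04 and 58.5% higher over the protein-coding genes. The median size of their log2 ratios, whatever the sign, was 0.13, beside 0.12 over the protein-coding genes. Of the 31, 29 were detected genes, and the other 2 were Slc38a4 and Slc6a17.

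The deposited TPM intervals of the libraries, whose level is not given in the sources used here, did not overlap for 6 of the 31 genes. Slc6a6, Slc3a2, Slc38a2, Slc7a1 and Slc7a5 were higher in replicate 2, and Slc6a4 was lower. This was 16.1% of the transporter genes higher and 3.23% lower, beside 9.14% and 5.66% of the protein-coding genes. Variation between animals is not part of these intervals. For some genes the interval does not hold the TPM itself, as for Slc6a17 in replicate 2, at 0.77 TPM with bounds of 0.83 and 1.76. For the 6 genes named here it does in both libraries. TMM-scaled counts gave Slc3a2 and Slc7a1 log2 ratios of 0.04 each, against 0.10 and 0.16 with TPM. Slc6a6, Slc38a2 and Slc7a5 had TMM ratios of 0.23, 0.22 and 0.29. With a lower minimum of 50 summed counts, 2 of 37 transporter genes were 1.5-fold apart, Slc38a3 and Slc6a5, beside 5.36% of protein-coding genes. Without a minimum, 7 of 60 were, beside 7.89%, and each of the 5 that this added had 40 or fewer counts. Slc38a4 was the only gene of 33 at 1.5-fold with read-derived TPM, beside 3.92%. Its read-derived counts were 161 in replicate 2 and 140 in replicate 1. Its short transcript Slc38a4-204 had 0.78 read-derived TPM from 6.54 counts in replicate 2 and 0 in replicate 1.

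**Figure D3:**
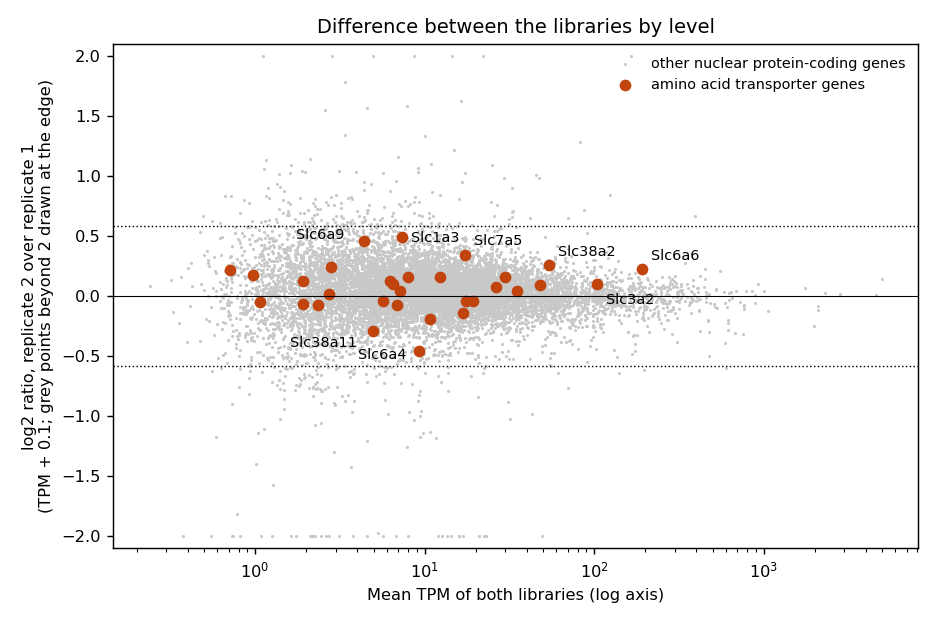
Log2 ratio of replicate 2 over replicate 1 (TPM + 0.1, y axis) against mean TPM (log axis) for genes with at least 200 summed counts; red points are the 31 amino acid transporter genes and grey points the other nuclear protein-coding genes, and dotted lines mark 1.5-fold. The red points lie between -0.46 (Slc6a4) and 0.49 (Slc1a3), inside the dotted lines.

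The levels depended on which quantification was read. The read-derived TPM was a median of 1.70 times the gene table's over the 31 detected genes in each library, beside 1.74 times in replicate 2 and 1.75 times in replicate 1 over the detected protein-coding genes. The 3 genes above 2.5 times in both libraries were Slc3a2, Slc7a7 and Slc38a6, beside 4.50% of the detected protein-coding genes. Slc3a2 had 331 TPM in replicate 2 and 274 in replicate 1 in the read-derived table, above Slc6a6 with 282 and 256 TPM, so the order of the highest pair changed. Its counts hardly differed between the tables, with 6977 read-derived counts in replicate 2 and 6211 in replicate 1. The short transcripts Slc3a2-203 and Slc3a2-208 took 169 TPM of it in replicate 2 and 116 TPM in replicate 1, but 0 in the alignment-derived table.

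Slc38a6 (chr12:73286779-73354049 in mm10, plus strand), a little-studied family member, differed most between the tables. It had 1.88 TPM in replicate 2 and 1.97 in replicate 1 in the gene table, against 24.9 and 18.9 TPM in the read-derived table. The transcript Slc38a6-208 held 2140 of the 2302 read-derived counts in replicate 2 and 1485 of 1632 in replicate 1. The alignment-derived table gave it 16.2 and 5.86 counts. Of the 31-base words of Slc38a6-208, 78.0% also occur in transcripts of 127 other genes. Its last exon at chr12:73310990-73314520 is 3531 bases long, with 9 coding bases. Without that transcript the read-derived level of Slc38a6 was 3.05 TPM in replicate 2 and 2.71 in replicate 1, so its expression above that level is uncertain.

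**Figure D4:**
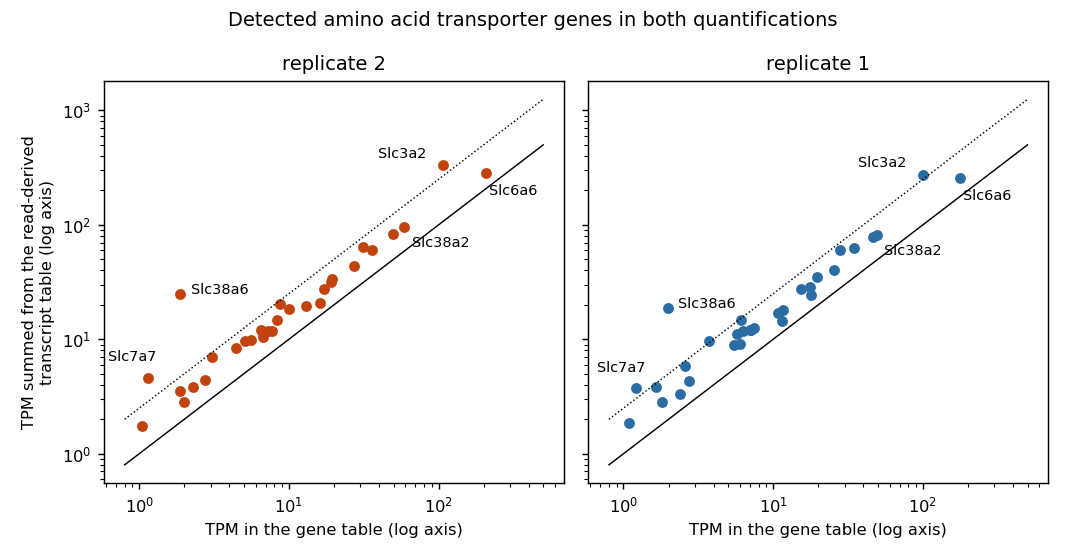
TPM summed from the read-derived transcript table (y axis) against TPM in the gene table (x axis), both log axes, for the 31 detected genes in replicate 2 (left) and replicate 1 (right); the solid line marks equal values and the dotted line 2.5 times. Slc38a6, Slc3a2 and Slc7a7 lie above the dotted line in both panels.

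Most detected transporter genes had a transcript that dominated, but their share was no higher than that of detected protein-coding genes. All 31 have at least 2 annotated transcripts, and in 19 the same transcript held 50% or more of the gene's TPM in both libraries, beside 68.1% of detected protein-coding genes with at least 2 transcripts. The leading transcript was the same in both libraries for 26 genes, beside 90.0%, and it was protein-coding for all 31 in both tables and libraries. Slc7a5-201 and Slc7a8-201 held 98.8% or more of their genes' alignment-derived TPM. For Slc6a6 the leading Slc6a6-201 held 63.3% in replicate 2 and 60.9% in replicate 1, and the short Slc6a6-205, annotated as a target of nonsense-mediated decay, held 24.8% and 24.0%. For Slc38a9 the leading protein-coding transcript held 36.9% in replicate 2 and 31.4% in replicate 1, and the transcripts with no coding annotation or with decay annotation held the other 63.1% and 68.6%.

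The leading transcript differed between the libraries for Slc7a2, Slc7a4, Slc38a1, Slc38a7 and Slc43a1. Slc43a1 differed most, with 96.1% on Slc43a1-201 in replicate 2, against 28.2% in replicate 1, where 29.5% was on Slc43a1-206. For other genes the tables disagreed. Slc1a4 was all on Slc1a4-202 in the alignment-derived table and all on Slc1a4-201 in the read-derived table, in both libraries. Slc6a4 was led by Slc6a4-201 in the alignment-derived table, with 88.0% in replicate 2 and 91.0% in replicate 1, but by Slc6a4-202 in the read-derived table, with 65.6% and 74.9%. In all, 18 of the 31 genes had the same leading transcript in both libraries and both tables.

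**Figure D5:**
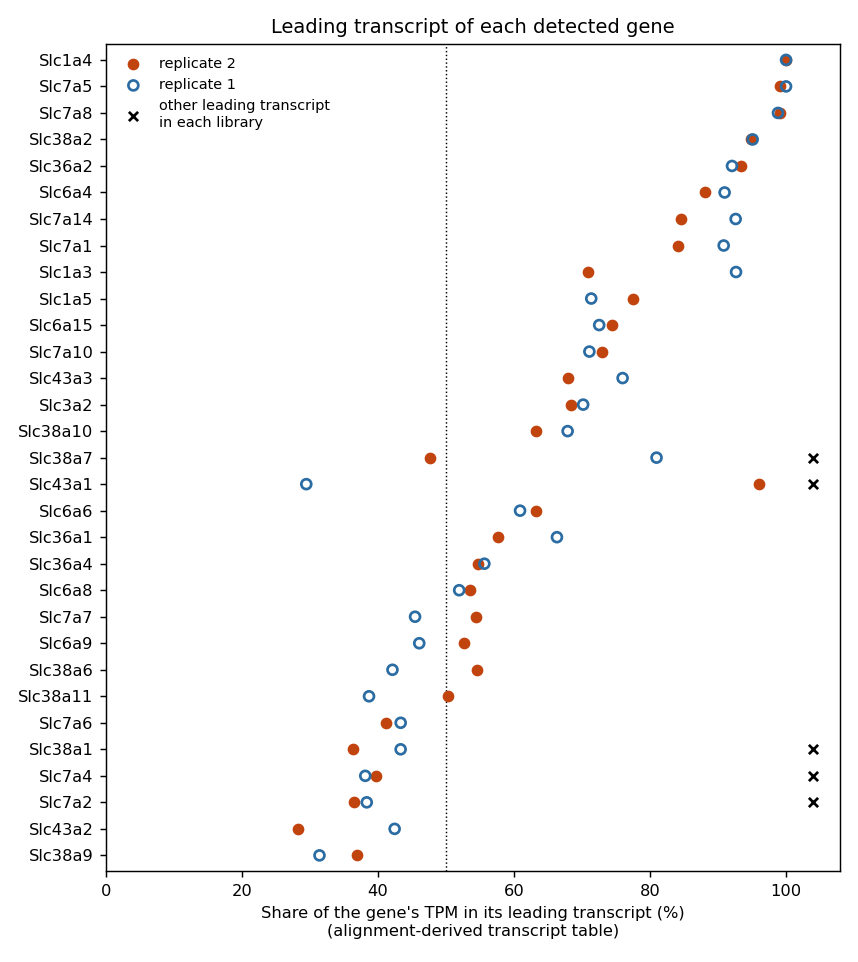
Share of each detected gene's TPM in its leading transcript in the alignment-derived table (x axis, percent) for replicate 2 (filled) and replicate 1 (open), genes ordered by the mean share; crosses mark the 5 genes led by different transcripts in the libraries, and the dotted line marks 50%. Slc1a4, Slc7a5 and Slc7a8 lie at 98.8% or more, and Slc43a1 has the widest gap, 96.1% in replicate 2 against 29.5% in replicate 1.

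Genes that work with the transporters were mostly detected. In the amino acid response through Atf4, the factor that raises several transporters when amino acids are scarce, 15 of 16 genes were detected. Of the 15 with at least 200 summed counts, 2 were 1.5-fold or more higher in replicate 2 and 1 was lower, beside 1.68% and 1.43% of protein-coding genes. Atf4 was at 85.4 TPM in replicate 2 and 54.4 in replicate 1, Ddit4 at 23.2 and 11.4 TPM, and Ddit3 at 17.2 and 26.9 TPM, so the 3 did not move one way. The list's median log2 ratio was 0.02. The highest of the list, Cebpb, was at 192 TPM in replicate 2 and 172 in replicate 1, and Atf5 at 45.9 and 53.0 TPM. Of 22 genes of lysosomal amino acid sensing all were detected, with Lamtor2 highest at 43.2 TPM in replicate 2 and 47.2 in replicate 1. With at least 200 summed counts, 0 of 21 were 1.5-fold apart, near the 3.11% of protein-coding genes.

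Of 10 enzymes of glutamate and glutamine, 7 were detected, led by Glul, the glutamine synthetase, at 379 TPM in replicate 2 and 313 in replicate 1. Of 10 genes of glutathione synthesis and turnover 8 were detected, with Gclm, a subunit of the first enzyme of the pathway, at 33.7 TPM in replicate 2 and 32.8 in replicate 1. Among carriers of other families 3 of the 8 found were detected, and the vesicular glutamate and GABA carriers were not. Slc15a4 was at 7.22 TPM in replicate 2 and 6.02 in replicate 1, the aromatic amino acid carrier Slc16a10 at 6.63 and 6.21 TPM, and the lysosomal cystine carrier Ctns at 5.11 and 4.98 TPM. Among genes with at least 200 summed counts, 0 of 7 glutamate and glutamine enzymes and 0 of 7 glutathione genes were 1.5-fold apart. Other carriers had 0 of 3 apart and partner proteins 0 of 4, beside 3.11% of protein-coding genes. A count of 0 is near that share in lists of this size. In the list of creatine and taurine synthesis 1 of 5 was 1.5-fold apart, at the threshold itself. This was Gatm, the first enzyme of creatine synthesis, with 1.67 TPM in replicate 2 and 1.08 in replicate 1, on 145 and 84 counts. Of the partner proteins 4 of the 5 found were detected, with Bsg highest at 172 TPM in replicate 2 and 188 in replicate 1, and Cltrn, the kidney partner of Slc6a19, had 0 counts in both.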

How the data were processed

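Total RNA-seq of adrenal glands was deposited for 2 libraries. Per the file headers and the text beside the deposited files, the authors' gene table and a transcript table made from alignments give, on mm10 with GENCODE M21, each record's expected count and TPM, and the authors' read-derived transcript table holds an estimated count and TPM. The bounds of the deposited TPM interval were read as a signal. The sources used here name no aligner, tool version or use of strand, so overlapping genes are uncertain. TPM sums to a fixed total over all records.

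The members and lists were chosen with earlier results of these data known. A further symbol that matches the pattern was left out by the rule. Detection meant 1 TPM in both libraries. Ratios are replicate 2 over replicate 1 of TPM + 0.1, for genes with 200 or more summed expected counts. TMM scaling by edgeR 4.0.16 and size factors by DESeq2 1.42.0 (R 4.3.3) were alternatives. Both were computed on rounded expected counts and applied to unrounded ones. Intervals of count ratios are Clopper-Pearson (scipy 1.17.1), and 0 counts allow up to 3 counts. The ratio code was tested on simulated data. Words of 31 bases were compared between all GENCODE M21 transcripts, and exons were aligned with Biopython 1.88. Python 3.11.15, numpy 2.4.6, pandas 2.3.3 and matplotlib 3.10.9 were used for tables and plots. The genes named were every detected gene, genes near 1 TPM, genes past 1.5-fold, genes with different leading transcripts, genes with 0 counts, and of the other lists the highest and those past 1.5-fold. Protein sequences were not used here, and a few genes of these lists are not reported here.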

Additional observations from a re-analysis of the deposited data

How the results depend on the processing

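The number of detected genes was 31 and ranged from 21 at 5 TPM to 33 at 0.5 TPM, in the read-derived table and with TPM over nuclear protein-coding genes. Leaving out a library gave 31 to 32. The summed level, a mean of 669 TPM, was 1236 TPM in the read-derived table and 2145 TPM with TPM rescaled over nuclear protein-coding genes alone, where the larger value follows from the smaller total. Leaving out a library gave 641 to 698 TPM. The count of genes 1.5-fold apart, 0 with TPM + 0.1 and 200 summed counts, was 2 with 50 summed counts, 7 with no minimum and 1 (Slc38a4, beside 3.92% of protein-coding genes) in the read-derived table. It was 0 with TPM + 1, TMM, DESeq2 size factors or a 2-fold threshold. The 19 genes with a dominant transcript fell to 12 at 70%, remained 19 in number in the read-derived table, and were 20 to 24 with a library left out. Of the 33 genes with a level followed across settings, all 33 were higher in the read-derived table. Their log2 ratios changed sign for 6 with TMM, 10 in the read-derived table and 0 with TPM + 1, and the cause was not tested. Those that changed in the read-derived table include Slc6a9, from 0.46 to -0.02, and Slc7a6, from -0.19 to 0.34. No paired analysis was possible because there is 1 group. Of the 29 genes not detected, Slc38a4 and Slc6a17 had at least 200 summed counts.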

Other observations

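Some transporter genes are neighbours in mm10. Counting protein-coding genes only, 8 pairs of amino acid transporter genes lie next to each other. Slc38a1 and Slc38a2 lie 44478 bases apart on chromosome 15, and Slc38a2 was at 59.1 TPM in replicate 2 and 49.3 in replicate 1 beside 8.37 and 7.50 TPM for Slc38a1. On the other side of Slc38a2, Slc38a4 was at 1.04 TPM in replicate 2 and 0.91 in replicate 1. On chromosome 11, Slc36a2 was at 27.1 TPM in replicate 2 and 25.7 in replicate 1 beside 5.58 and 5.73 TPM for Slc36a1, and their expected counts are not whole numbers, so reads were divided between records. The pairs Slc6a13 with Slc6a12, Slc6a16 with Slc6a21 and Slc6a18 with Slc6a19 were all under 0.5 TPM in both libraries.

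Exon bases are shared with a gene on the opposite strand for 12 of the 60 genes, 9 of them detected. Slc1a1 shares 31.9% of its exon bases with 4430402I18Rik, Slc3a1 shares 26.5% with Prepl, Slc7a10 shares 17.9% with Lrp3 and Slc7a4 shares 13.3% with P2rx6. Prepl was at 10.8 TPM in replicate 2 and 10.9 in replicate 1, while Slc3a1 had 6 and 2 counts. Lrp3 had 809 counts in replicate 2 and 651 in replicate 1, beside 106 and 86 for Slc7a10. Slc7a7 shares 232 exon bases with Oxa1l. Oxa1l had 2459 counts in replicate 2 and 2309 in replicate 1, beside 65 and 61 for Slc7a7. Whether reads from the opposite strand entered the counts of these transporter genes was not tested.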
